A study of Mus musculus with 6 samples.

Results

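The insulin-like growth factor (IGF) axis was followed in mouse lung through 10 genes: the ligands Igf1 and Igf2, the receptors Igf1r and Igf2r, and the binding proteins Igfbp2, Igfbp3, Igfbp4, Igfbp5, Igfbp6 and Igfbp7. They were listed by name, with earlier results of these data known. Every non-control probe whose transcript maps to one of these symbols in RefSeq was kept, which gave 13 of the 56605 probes on the array and 10 of the 22911 genes that had a probe. Igf2, Igf1r and Igfbp4 had 2 probes each and the other 7 genes had 1, and where there were 2 the brighter one stands for the gene and the other is given beside it.

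IGF1 and IGF2 are small secreted proteins related to insulin that drive growth, survival and matrix production in mesenchymal cells. Both act through IGF1R, a receptor tyrosine kinase, while IGF2R carries IGF2 and enzymes tagged with mannose phosphate to the lysosome and does not relay a growth signal in the same way. The binding proteins hold the ligands outside the cell, extending their life or keeping them from the receptor, and are cut by secreted proteases such as PAPP-A, so that ligand, binding protein and protease together set how much IGF is free. In the lung, fibroblasts and macrophages are known sources of IGF1.

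Gene expression was measured with 1-colour (Cy3) Agilent arrays in 3 groups of 2 samples, all from male mice. Bleomycin, which scars the lung and serves as a model of fibrosis, had been given to the mice of the first group, whose myofibroblasts (matrix-laying cells that contract) were gated as CD49e+ Sca1- Lin-. The steady-state fibroblasts were sorted as CD140a+ Lin- cells from untreated lungs, and the lung homogenates, whole untreated tissue, were the controls. The sets were of 50000 cells and 5.8 ng of total RNA was labelled per sample. The gate and the bleomycin treatment changed together, so what belongs to either cannot be told apart, and there was no homogenate of bleomycin-treated lung among the samples. Strain, age, bleomycin dose and time after bleomycin are not given in the sources used here. The labels do not state whether both samples of a group are from different mice, and the p-values therefore reflect a spread between samples that may be technical.

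Values are given as relative signal, the spot's background-corrected intensity as a multiple of that array's 75th percentile, so that 1 is the level that 75% of the spots stay under. A probe's brightness depends on its sequence, so levels were compared between groups for the same probe and never between genes. All 10 genes were well above background on all 6 arrays with their brightest probe and were tested in all 3 comparisons. Over the whole array 65.5% to 73.4% of spots were well above background and none was saturated. All 6 arrays lay on 1 slide read in 1 scan, with sorted cells in 1 row and homogenates in another, and the effect of the row cannot be told apart from that of homogenate. In bulk RNA, fewer cells of a type and less RNA per cell cannot be told apart either.

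The labels were checked against marker genes. The 7 listed myofibroblast markers, Acta2 and Tagln among them, summed to 669 to 726 in myofibroblasts. Their sums were 67.2 to 106 in fibroblasts and 39.5 to 40.3 in homogenate. The 7 listed resting fibroblast markers summed to 580 to 594 in myofibroblasts, 522 to 606 in fibroblasts and 101 to 112 in homogenate. In myofibroblasts most of that sum was Col1a2 (507 and 514). Itga5, which encodes CD49e, read 3.74 and 5.01 on the myofibroblast arrays and 0.316 and 0.228 on the fibroblast arrays, and Pdgfra, which encodes CD140a, read 9.66 and 10.2 against 73.5 and 35.1. Ly6a, which encodes Sca1, read 3.69 and 4.28 in the Sca1- gated myofibroblasts, 12 and 19.2 in fibroblasts and 24.1 and 21.6 in homogenate. It was thus lowest in myofibroblasts but well above background on both of their arrays. Ptprc, the pan-leukocyte gene of lineage gates, read 23.4 and 23.7 in homogenate. It read 0.0117 and 0.0674 in myofibroblasts and 0.0084 and 0.00971 in fibroblasts. Of the sorted arrays, only the second myofibroblast array had it well above background. The 7 listed endothelial markers summed to at most 0.484 in myofibroblasts and 1.73 in fibroblasts against at least 85.7 in homogenate. The 8 epithelial markers summed to 11.8 to 17.7 in myofibroblasts, 72.1 to 121 in fibroblasts and 831 to 842 in homogenate, and in the sorted groups most of it was the secretory-cell gene Scgb1a1 (10.4 and 15.9, and 118 and 69).

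The 2 arrays of a group did not lie equally close. Over all genes measured in a group, 7.84% differed more than 2-fold between the myofibroblast arrays, 23.5% between the fibroblast arrays and 2.83% between the homogenate arrays. Among the 10 IGF genes the counts were 1 (Igf1r) in myofibroblasts, 4 (Igf2, Igf2r, Igfbp4 and Igfbp5) in fibroblasts and 0 in homogenate. The fibroblast gaps ran in both directions: Igf2 and Igfbp4 were higher on the second array, by 3.40 and 3.62 on the log2 scale, and Igf2r and Igfbp5 on the first, by 1.20 and 1.48. The fit used for the tests assumes 1 spread for all groups. Where values are given without an array, 1 array was left out at a time, the array left alone in its group was assumed to vary like the other groups, and "without either" covers both such fits of a group.

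**Figure D1:**
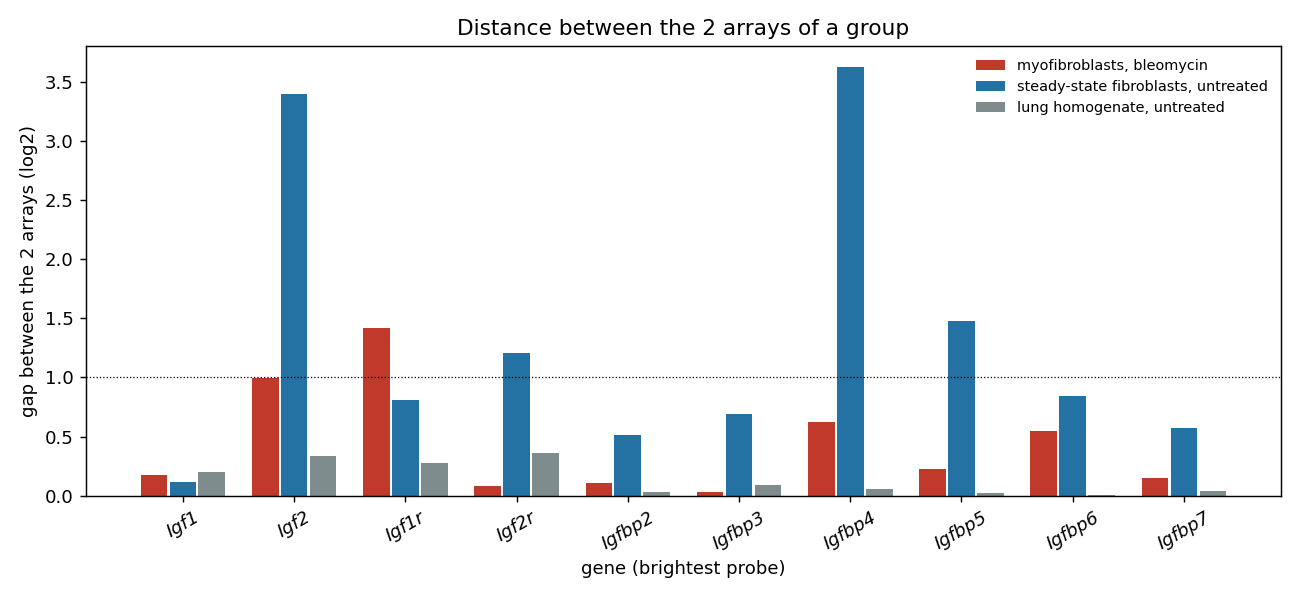
Bars show the distance between the 2 arrays of each group (vertical axis, absolute log2 difference, from 0) for the brightest probe of each of the 10 genes; the dotted line marks 2-fold. The fibroblast bars of Igf2 and Igfbp4 are the tallest, at 3.40 and 3.62, and no homogenate bar passes 0.36.

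Between myofibroblasts and fibroblasts, 5 of the 10 genes differed (limma, adjusted p under 0.05): Igf1 and Igfbp2 were higher in myofibroblasts, and Igfbp3, Igfbp5 and Igfbp6 were lower. Of all 16008 genes tested in that comparison 17.2% were called, 9.21% higher and 8.01% lower. The median log2 difference was -0.41 over the 10 genes and -0.06 over all genes. Between fibroblasts and homogenate 6 of the 10 differed, with Igf1, Igf2r, Igfbp3, Igfbp6 and Igfbp7 higher in fibroblasts and Igfbp2 lower; the background was 19.9% of 17065 genes, 8.09% higher and 11.8% lower. The medians there were 1.47 and 0.03. Between myofibroblasts and homogenate 3 of the 10 differed, all higher in myofibroblasts (Igf1, Igfbp2 and Igfbp7), against a background of 26.9% of 17165 genes, 11.9% higher and 15% lower, with medians of 0.67 and -0.01. The comparisons share arrays, so they are not independent of each other. The split of the background into higher and lower depended on the scaling: higher genes were 53.5% of those called between the sorted groups and 25.4% with the authors' deposited scaling, 64.6% with median scaling. Against homogenate the share of higher genes was 40.7% for fibroblasts (50.7% with median scaling) and 44.3% for myofibroblasts (64.9% with median scaling, 20.6% with the authors' deposited scaling).

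Groups whose arrays do not overlap were common on the whole array. The 2 sorted groups did not overlap for 8 of the 10 genes, all but Igf1r and Igfbp4, against 63.1% of all genes tested. Fibroblasts and homogenate did not overlap for 7, against 62.8%, and myofibroblasts and homogenate for 8, against 77.5%.

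**Figure D2:**
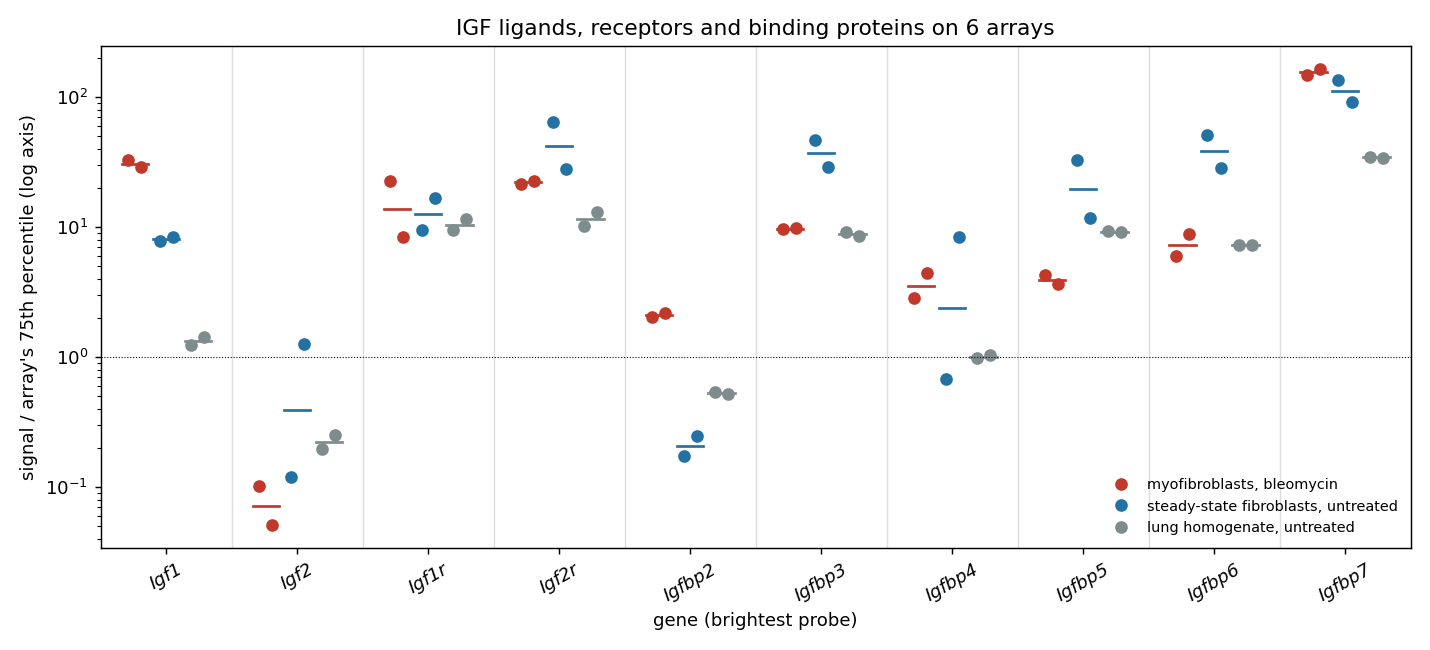
Each dot is 1 array and each short bar the group's geometric mean; the vertical axis is the signal as a multiple of the array's 75th percentile on a log axis, for the brightest probe of each gene. Igf1 steps down from 29 to 32.7 in myofibroblasts to 7.75 to 8.43 in fibroblasts and 1.25 to 1.44 in homogenate, while the fibroblast dots of Igf2 and Igfbp4 lie far apart.

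Of the ligands, Igf1 was highest in myofibroblasts. On chromosome 10, its single probe, A_51_P147942, read 32.7 and 29 in myofibroblasts, 7.75 and 8.43 in fibroblasts and 1.25 and 1.44 in homogenate. The 3 groups stood in that order with no overlap, and each step was larger than the spread between arrays. The log2 difference of myofibroblasts over fibroblasts was 1.93 ± 0.24 (standard error, with n = 2 arrays in each group), or 3.81-fold (limma, adjusted p = 0.00819). Fibroblasts exceeded homogenate by 2.59 ± 0.24, 6.03-fold (limma, adjusted p = 0.00171), and myofibroblasts exceeded homogenate by 4.52 ± 0.24, 22.9-fold (limma, adjusted p = 0.000311). Both differences from homogenate were called under all 18 other settings, with adjusted p up to 0.0275 and 0.00732. The difference between the sorted groups lost its call in 1 of the 18, without the first myofibroblast array (1.84, limma, adjusted p = 0.0501).

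Macrophages make Igf1 too, so their markers are given beside it. Marco and Chil3, both marking alveolar macrophages, read 67.9 and 71.4, and 194 and 195, in homogenate. In myofibroblasts Marco read 0.458 and 1.84 and Chil3 0.333 and 1.04, and in fibroblasts Marco read 0.111 and 0.107 and Chil3 was not well above background. Like Igf1, both were higher in myofibroblasts than in fibroblasts (limma, adjusted p = 0.0315 for Marco and 0.00718 for Chil3), though Marco was not called without either fibroblast array (0.0883 and 0.0679) or either homogenate array (0.0772). Of the 13 macrophage and leukocyte markers, 7 were above background on both myofibroblast arrays, 5 on both fibroblast arrays and 13 on both homogenate arrays, and the list summed to 177 to 185, 176 to 193 and 492 to 505. Most of the sum in the sorted groups came from the probes of Itgam (151 to 173) and Csf1r (18.6 to 24.4), which read alike in homogenate (136 and 143, 20.9 and 21.9), and Mrc1 and Itgax were above background on no sorted array. Whether the Itgam and Csf1r probes report these genes is not known, so the sums say little about leukocytes. The part of macrophages in the Igf1 difference was not tested.

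Several smooth muscle and pericyte genes also moved with Igf1 and Igfbp2 between the sorted groups. The 7 listed markers summed to 42.1 to 54.4 in myofibroblasts, 8.10 to 11 in fibroblasts and 10.9 to 13.7 in homogenate, with 6, 6 and 7 above background on both arrays. Des, an intermediate filament gene, read 30.6 and 42.4 in myofibroblasts against 0.126 and 0.43 in fibroblasts (log2 difference 7.28, limma, adjusted p = 0.00319). Cnn1 (4.31), Cspg4 (3.26) and Myh11 (2.10) were higher too (limma, adjusted p = 0.00132, 0.00239 and 0.0127). Kcnj8, a pericyte channel gene, was lower (-2.45, limma, adjusted p = 0.00960), and Notch3 was not called. Rgs5 was above background on 1 array of each sorted group and was not tested between them. Without the first myofibroblast array Myh11 (adjusted p = 0.0656) and Kcnj8 (0.0544) were not called. Against homogenate, Des, Cnn1 and Cspg4 were higher in myofibroblasts as well, and Myh11 was lower (log2 difference -1.29, limma, adjusted p = 0.0316). Kcnj8, Notch3 and Rgs5 were not called there. The part of smooth muscle cells and pericytes in the Igf1 and Igfbp2 differences was not tested.

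The genes whose pattern over the 6 arrays was most like that of Igf1 were Loxl3, Ccdc80 and Adamts4, out of 15759 compared. Likeness was the root mean square difference of log2 values after each gene was centred on its mean, which was 0.22 for Loxl3 and 0.24 for both Ccdc80 and Adamts4. Loxl3 encodes a lysyl oxidase that cross-links collagen, and it read 9.57 and 7.89 in myofibroblasts, 1.56 and 1.87 in fibroblasts and 0.272 and 0.277 in homogenate. Adamts4 encodes a protease of matrix proteoglycans and read 19.5 and 19.6, 4.86 and 4.08, and 0.876 and 0.638.

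Igf2, the ligand best known from fetal growth and expressed from the paternal allele, had no difference that passed the test. Its brighter probe, A_51_P516833, read 0.102 and 0.0513 in myofibroblasts, 0.121 and 1.27 in fibroblasts and 0.198 and 0.251 in homogenate. The second fibroblast array stood far above the other 5, and the second probe, A_55_P2118173, showed the same array apart: 0.0987 and 0.0381, 0.0854 and 1.16, 0.265 and 0.164. Myofibroblasts minus fibroblasts was -2.44 on the log2 scale with a 95% interval from -5.15 to 0.28 (limma, adjusted p = 0.170). Without the first fibroblast array it was -4.13 (limma, adjusted p = 0.0206), and without the second it was -0.74 (adjusted p = 0.303). Against homogenate, fibroblasts differed by 0.81 (interval -1.90 to 3.53, limma, adjusted p = 0.656). That value was 2.51 without the first fibroblast array (adjusted p = 0.0403) and -0.89 without the second (adjusted p = 0.235). Myofibroblasts were lower than homogenate on both arrays, by a log2 difference of -1.62 with an interval from -4.34 to 1.09 (limma, adjusted p = 0.310), which was called without either fibroblast array (adjusted p = 0.0409).

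Neither receptor passed the test between the sorted groups. Igf1r, the signalling receptor, read 22.6 and 8.45 in myofibroblasts, 9.58 and 16.8 in fibroblasts and 9.47 and 11.5 in homogenate with its brighter probe, A_51_P318365. The groups overlapped in all 3 pairings, and their order cannot be set. Its second probe, A_55_P2736764, read 8.42 and 5.6, 8.29 and 10.3, and 5.25 and 7.16. The log2 difference between the sorted groups was 0.12 with an interval from -1.24 to 1.49 (limma, adjusted p = 0.886), and -0.43 with the second probe (adjusted p = 0.402). Against homogenate it was 0.28 for fibroblasts (interval -1.08 to 1.65, limma, adjusted p = 0.765) and 0.41 for myofibroblasts (interval -0.96 to 1.77, limma, adjusted p = 0.611). The interval between the sorted groups still allows a difference of more than 2-fold in either direction, and the sign changed with the scaling and the probe.

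Igf2r, the clearing receptor, was highest in fibroblasts. Its probe, A_51_P125467, read 21.4 and 22.7 in myofibroblasts, 64.1 and 27.8 in fibroblasts and 10.2 and 13 in homogenate, with no overlap between groups. Fibroblasts exceeded homogenate by 1.88 ± 0.44 on the log2 scale, 3.67-fold (limma, adjusted p = 0.0363). This call was lost in 7 of the 18 other settings, among them without either homogenate array (adjusted p = 0.196 and 0.135), without either myofibroblast array (0.0727) and with the replicate number as a block (0.0516). Between the sorted groups the difference was -0.94 (interval -2.03 to 0.16, limma, adjusted p = 0.187) and was called without the second fibroblast array (-1.54, adjusted p = 0.0179). Myofibroblasts minus homogenate was 0.94 (interval -0.16 to 2.04, limma, adjusted p = 0.168), called without either fibroblast array (adjusted p = 0.0292). Myofibroblasts thus lay between the other groups, with neither neighbour separated from it by the test over all 6 arrays.

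Of the binding proteins, Igfbp2 was the one that was higher in myofibroblasts and lower in fibroblasts, both relative to homogenate. Its probe, A_55_P2056729, read 2.04 and 2.19 in myofibroblasts, 0.173 and 0.247 in fibroblasts and 0.535 and 0.523 in homogenate. No groups overlapped, and the order was myofibroblasts, homogenate, fibroblasts. Myofibroblasts exceeded fibroblasts by 3.35 ± 0.28 on the log2 scale, 10.2-fold (limma, adjusted p = 0.00301), and this was called under all 18 other settings, with adjusted p up to 0.0265. They exceeded homogenate by 2.0 ± 0.28, 3.99-fold (limma, adjusted p = 0.00552), and fibroblasts were below homogenate, with a log2 difference of -1.36 ± 0.28 (limma, adjusted p = 0.0231). Both calls against homogenate were lost without either homogenate array, at adjusted p = 0.0549 and 0.0589 for myofibroblasts and 0.160 and 0.157 for fibroblasts.

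The 3 genes nearest to Igfbp2 in pattern were H2ac13, a histone gene, Mcm5, a subunit of the replicative helicase, and S100a4, a calcium-binding protein often used to mark fibroblasts. Their distances were 0.25, 0.25 and 0.27. H2ac13 was dim, at 0.068 and 0.122 in myofibroblasts, 0.00839 and 0.0099 in fibroblasts and 0.0281 and 0.0244 in homogenate. Its fibroblast values were as low as those of Mrc1 (0.00856 and 0.00977), which was not above background there. Mcm5 read 1.32 and 1.49 in myofibroblasts, 0.187 and 0.188 in fibroblasts and 0.351 and 0.401 in homogenate. S100a4 read 132 and 141, 7.97 and 11, and 21.5 and 23.8. The 4 cycling-cell markers had sums in the same order, 10.1 to 10.8 in myofibroblasts, 0.227 to 0.369 in fibroblasts and 1.94 to 2.02 in homogenate, with Top2a and Ccnb1 above background on no fibroblast array and Cdk1 on no homogenate array. The part of cycling cells in the Igfbp2 difference was not tested.

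Igfbp5, the direct neighbour of Igfbp2 on chromosome 1, went the other way between the sorted groups. Its probe, A_52_P281702, read 4.26 and 3.65 in myofibroblasts, 33 and 11.8 in fibroblasts and 9.3 and 9.16 in homogenate. The order was fibroblasts, homogenate, myofibroblasts, with no overlap. Myofibroblasts minus fibroblasts was -2.33 ± 0.50 on the log2 scale, 5.02-fold lower (limma, adjusted p = 0.0342). The call was lost without either myofibroblast array (adjusted p = 0.111 and 0.147), without either homogenate array (0.0857), with only the 4 arrays compared (0.0726) and with no filter on dim probes (0.0567). Neither neighbour in the order was separated by the test over all 6 arrays. Fibroblasts minus homogenate was 1.10 (interval -0.16 to 2.35, limma, adjusted p = 0.202), called without the second fibroblast array (1.84, adjusted p = 0.00900). Myofibroblasts minus homogenate was -1.23 (interval -2.48 to 0.03, limma, adjusted p = 0.126), called without either fibroblast array (adjusted p = 0.0115).

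Igfbp2 and Igfbp5 lie next to each other among protein-coding genes and on opposite strands, with their 3′ ends towards each other. Because the pair differed in opposite directions between the sorted groups, the 250 bases before the outermost start of each gene are shown (RefSeq, GRCm38.p6, 5′ to 3′ on the gene's strand). Igfbp2 is at chr1:72824230-72824479 on the plus strand and Igfbp5 at chr1:72874866-72875115 on the minus strand. Capitals mark GC boxes, GGGCGG on either strand.
Igfbp2: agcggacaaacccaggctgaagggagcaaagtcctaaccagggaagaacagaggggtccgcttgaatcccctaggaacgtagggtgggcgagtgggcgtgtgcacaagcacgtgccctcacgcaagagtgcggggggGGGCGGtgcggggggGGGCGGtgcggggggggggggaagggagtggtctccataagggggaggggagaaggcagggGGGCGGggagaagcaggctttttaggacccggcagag
Igfbp5: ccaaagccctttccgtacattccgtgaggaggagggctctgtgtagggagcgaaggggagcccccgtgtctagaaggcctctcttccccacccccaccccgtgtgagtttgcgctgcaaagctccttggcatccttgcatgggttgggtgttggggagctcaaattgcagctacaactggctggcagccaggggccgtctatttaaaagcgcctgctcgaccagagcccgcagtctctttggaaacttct
The Igfbp2 window holds 67.2% G and C and 3 GC boxes, the nearest with its first base 37 bases before the start. The Igfbp5 window holds 58.8% and no match to any of the 4 motifs searched on both strands. These were the TATA box (TATAAA), the GC box, the CCAAT box and, for AP-1 factors, TGAGTCA. Of 32536 windows of this length before RefSeq starts, 12.3% hold the TATA box, 33% the GC box, 33.8% the CCAAT box and 4.45% the AP-1 motif, and the median is 52.4% G and C. A match describes letters in the window and nothing here measured binding.

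Igfbp3 and Igfbp6 shared 1 pattern: high in fibroblasts, and close to homogenate in myofibroblasts. Igfbp3 encodes the main carrier of IGF1 in blood. Its probe, A_55_P2803213, read 9.6 and 9.82 in myofibroblasts, 46.9 and 29 in fibroblasts and 9.1 and 8.55 in homogenate. Both fibroblast arrays stood above the other 4, and the myofibroblast arrays stood just above the homogenate arrays. Myofibroblasts minus fibroblasts was -1.93 ± 0.31 on the log2 scale, 3.80-fold lower (limma, adjusted p = 0.0161), and fibroblasts exceeded homogenate by 2.07 ± 0.31, 4.18-fold (limma, adjusted p = 0.00812). Myofibroblasts minus homogenate was 0.14 (interval -0.63 to 0.91, limma, adjusted p = 0.764) and -0.36 with the authors' deposited scaling. The first call was lost without either myofibroblast array (adjusted p = 0.0742 and 0.0816) and without either homogenate array (0.0576), and the second without either homogenate array (0.0661 and 0.0752).

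Igfbp6, which binds IGF2 more tightly than IGF1, read 5.99 and 8.78 in myofibroblasts, 51.3 and 28.5 in fibroblasts and 7.32 and 7.3 in homogenate with its probe, A_66_P139546. The fibroblast arrays stood above the other 4, and the homogenate values fell between those of the 2 myofibroblast arrays. Myofibroblasts minus fibroblasts was -2.40 ± 0.38 on the log2 scale, 5.27-fold lower (limma, adjusted p = 0.0154), and fibroblasts exceeded homogenate by 2.39 ± 0.38, 5.23-fold (limma, adjusted p = 0.00986). Myofibroblasts minus homogenate was -0.01 (interval -0.96 to 0.93, limma, adjusted p = 0.984), with the sign depending on the scaling. Without either myofibroblast array the first call was lost (adjusted p = 0.0733 and 0.0528), as it was without either homogenate array (0.0507), and the second was lost without either homogenate array (0.0725 and 0.0743).

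The epithelial sum was also higher on the fibroblast arrays than on the myofibroblast arrays, and highest in homogenate; its part in the Igfbp3 and Igfbp6 differences was not tested. The genes nearest to Igfbp6 in pattern were Klhl13, Il11ra1 and Gsn, at distances of 0.12, 0.15 and 0.19. Il11ra1, the receptor for interleukin 11, read 8.32 and 11.9 in myofibroblasts, 53.4 and 31 in fibroblasts and 8.35 and 8.89 in homogenate. Gsn, which encodes the actin-severing protein gelsolin, read 47.2 and 74, 479 and 336, and 73.5 on both homogenate arrays.

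The window before the start of Igfbp6, the most fibroblast-enriched binding protein by the log2 difference between the sorted groups, is shown for comparison with the pair above (chr15:102143936-102144185, plus strand, GRCm38.p6). Capitals mark CCAAT boxes and a TATA box on the reverse strand.
Igfbp6: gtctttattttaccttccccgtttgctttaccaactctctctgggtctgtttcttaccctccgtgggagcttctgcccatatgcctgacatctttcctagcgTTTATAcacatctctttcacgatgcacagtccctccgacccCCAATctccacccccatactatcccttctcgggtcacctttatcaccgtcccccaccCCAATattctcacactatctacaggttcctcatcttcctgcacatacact
It holds 49.6% G and C, 2 CCAAT boxes, the nearest with its first base 50 bases before the start, 1 reverse-strand TATA box 148 bases before it, and no GC box. Over the 14 windows of the 10 genes, GC boxes were found for 5 genes, CCAAT boxes for 3, TATA boxes for 2 and the AP-1 motif for 1.

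Igfbp4, a binding protein that PAPP-A cuts, differed more between the 2 fibroblast arrays than between any groups. Its brighter probe, A_52_P257502, read 2.86 and 4.42 in myofibroblasts, 0.683 and 8.41 in fibroblasts and 0.992 and 1.03 in homogenate. The second probe, A_51_P398971, gave the same picture, with 1.34 and 1.3, 0.472 and 3.09, and 0.29 and 0.417. On both probes the 2 myofibroblast values fell between those of the fibroblast arrays. Myofibroblasts minus fibroblasts was 0.57 on the log2 scale (interval -2.24 to 3.37, limma, adjusted p = 0.741), 2.38 without the second fibroblast array (adjusted p = 0.0138) and -1.24 without the first (adjusted p = 0.0775). Fibroblasts minus homogenate was 1.24 (interval -1.56 to 4.05, limma, adjusted p = 0.501), 3.06 without the first fibroblast array (adjusted p = 0.0105) and -0.57 without the second (adjusted p = 0.255). Myofibroblasts stood above homogenate on both arrays, by 1.81 (interval -0.99 to 4.62, limma, adjusted p = 0.275), which was called without either fibroblast array (adjusted p = 0.0132). Tcf21, a transcription factor of lung fibroblasts, was also higher on the second fibroblast array, 9.4 against 3.09, whereas Pdgfra was lower there; their part in the Igfbp4 and Igf2 gaps was not tested.

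Igfbp7, a secreted protein that binds IGFs weakly, was high in both sorted groups. Its probe, A_51_P472292, read 149 and 165 in myofibroblasts, 136 and 91.5 in fibroblasts and 34.9 and 34 in homogenate. Every sorted array stood above both homogenate arrays, and the sorted groups were adjacent without overlapping. Myofibroblasts exceeded homogenate by 2.18 ± 0.29 on the log2 scale, 4.55-fold (limma, adjusted p = 0.00472), and fibroblasts exceeded it by 1.70 ± 0.29, 3.24-fold (limma, adjusted p = 0.0126). The difference between the sorted groups was 0.49 (interval -0.23 to 1.21, limma, adjusted p = 0.274). The first call was lost without the second homogenate array (adjusted p = 0.0504), and the second without either homogenate array (0.0969 and 0.106).

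**Figure D3:**
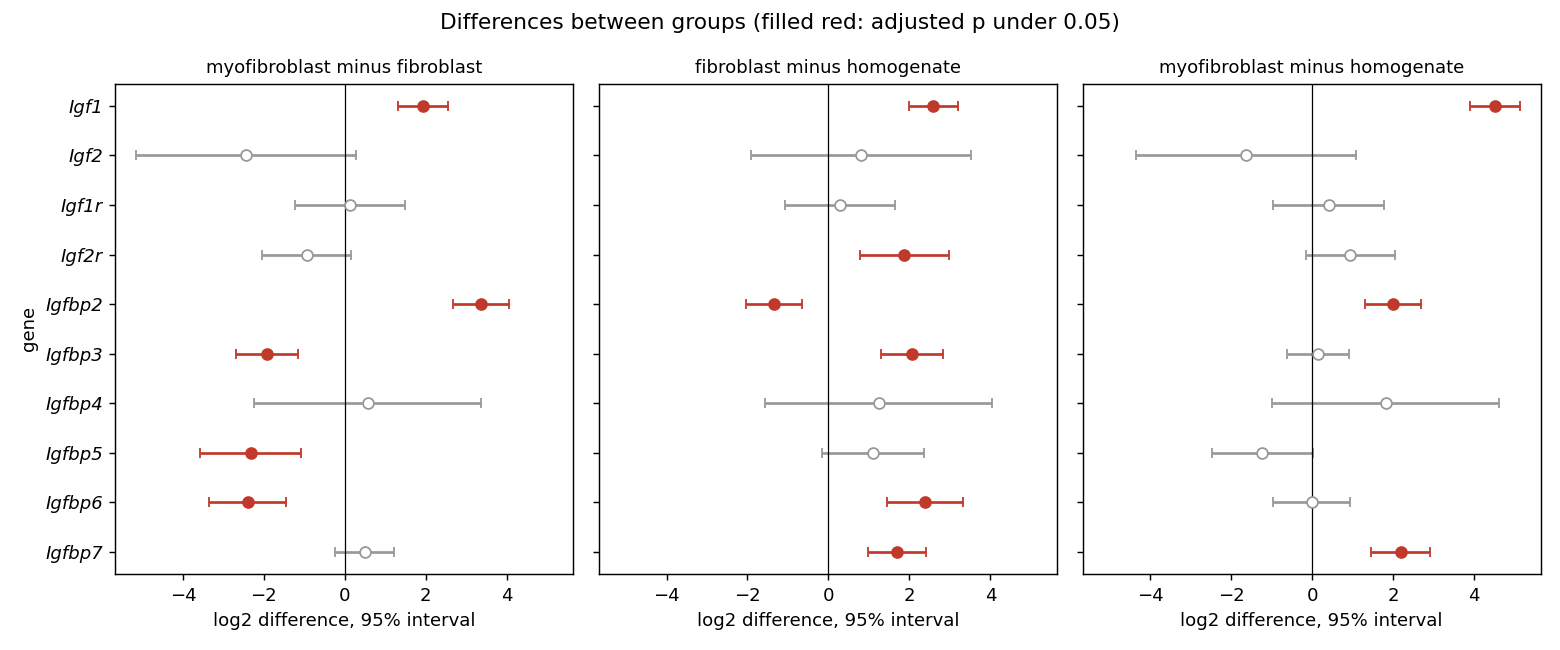
Points are log2 differences between groups for each gene (horizontal axis) with 95% intervals from limma, 1 panel per comparison; filled red points have an adjusted p under 0.05. Igf1 lies to the right of 0 in all 3 panels, Igfbp2 changes sides between the first and second, and the intervals of Igf2 and Igfbp4 are the widest.

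Around these 10 genes, 54 of 58 listed genes of the IGF axis and its relay were bright enough to be tested in at least 1 comparison. Between the sorted groups 51 were tested and 16 were called, 7 higher and 9 lower in myofibroblasts, with a median log2 difference of -0.32, against 17.2% called over all genes. Between fibroblasts and homogenate 12 of 54 were called, 9 higher and 3 lower (median 0.63), against 19.9% of all genes, and between myofibroblasts and homogenate 19 of 54, 12 higher and 7 lower (median 0.32), against 26.9%. Most of the 16 calls between the sorted groups were lost when 1 array was left out: Pappa, H19, Cdkn1c and Igf2bp3 were called without any 1 of the 6 arrays, and the others were lost in at least 1 such fit.

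**Figure D4:**
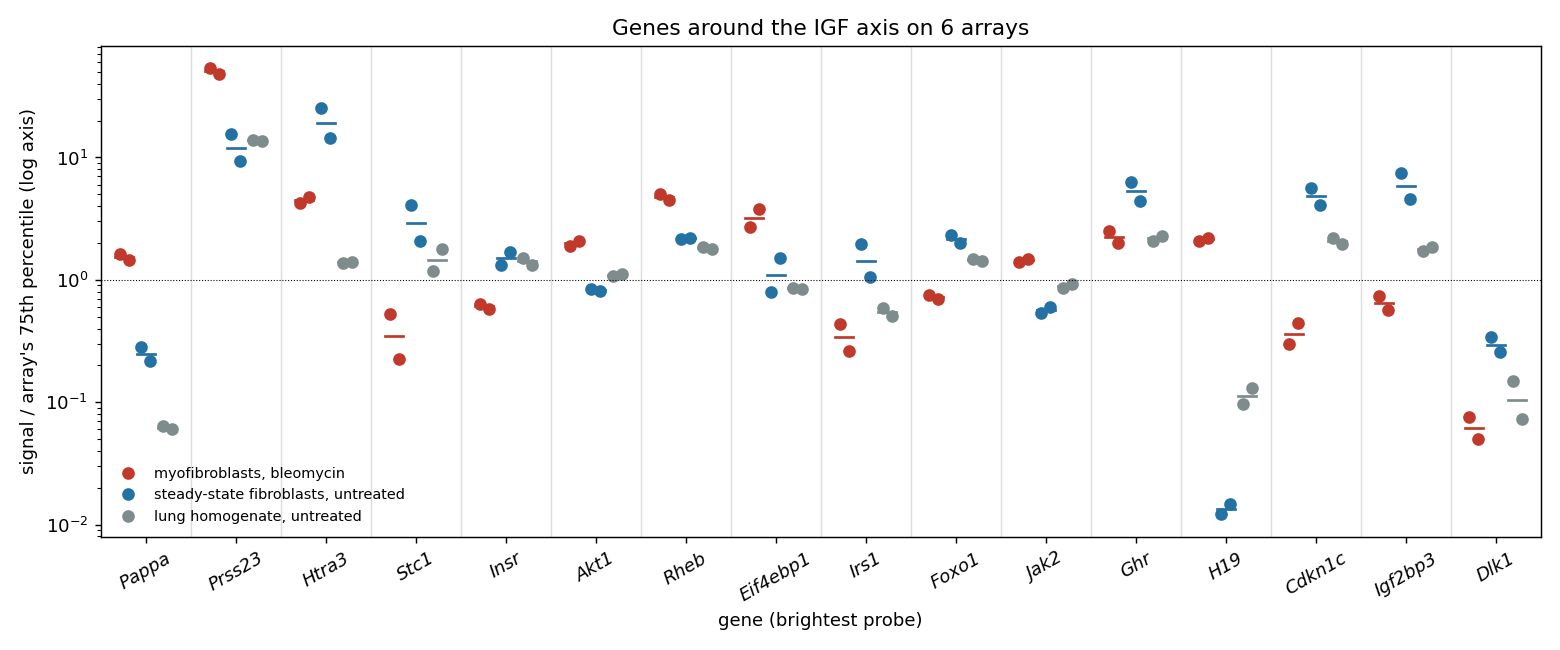
Each dot is 1 array and each short bar the group's geometric mean, on a log axis of signal as a multiple of the array's 75th percentile, for the 16 listed genes called between the sorted groups. Pappa and H19 are highest in myofibroblasts, Cdkn1c and Igf2bp3 in fibroblasts, and the H19 dots of the fibroblasts were not above background.

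Among the 9 genes for proteases that cut binding proteins and their inhibitors, 4 differed between the sorted groups, against 17.2% of all genes. Pappa, whose product PAPP-A cuts IGFBP4 and IGFBP5, read 1.62 and 1.45 in myofibroblasts, 0.281 and 0.217 in fibroblasts and 0.0638 and 0.06 in homogenate. It had the same order of groups as Igf1, with no overlap. Myofibroblasts exceeded fibroblasts by 2.63 ± 0.26 on the log2 scale (limma, adjusted p = 0.00444, at most 0.0328 under the 18 other settings) and homogenate by 4.63 (limma, adjusted p = 0.000340). Stc1, which encodes stanniocalcin 1, an inhibitor of PAPP-A, went the other way between the sorted groups, reading 0.526 and 0.227, 4.12 and 2.08, and 1.19 and 1.77. Its log2 difference was -3.08 ± 0.55 (limma, adjusted p = 0.0209) and was not called without the second myofibroblast array (adjusted p = 0.0891), the first fibroblast array (0.0628) or either homogenate array (0.0539). Prss23, a serine protease gene, was higher in myofibroblasts (53.6 and 47.9 against 15.5 and 9.28, log2 difference 2.08, limma, adjusted p = 0.0146). Htra3, a serine protease gene, was lower with 1 probe (4.25 and 4.76 against 25.4 and 14.3, log2 difference -2.08, limma, adjusted p = 0.0170) and differed by -0.48 with its other probe (adjusted p = 0.360). Without either myofibroblast or either homogenate array Prss23 (adjusted p = 0.0526 to 0.0721) and Htra3 (0.0574 to 0.0795) were not called.

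Of the axis genes outside the 10, Insr, the insulin receptor, was the 1 of 4 tested that was called between the sorted groups, against 17.2% of all genes. It read 0.64 and 0.579 in myofibroblasts, 1.33 and 1.69 in fibroblasts and 1.52 and 1.33 in homogenate. The log2 difference was -1.30 ± 0.26 (limma, adjusted p = 0.0278), and it was lost without either myofibroblast array (0.0929 and 0.128), without either homogenate array (0.0922) and with its other probe (-1.0, adjusted p = 0.0663). Igfbp1 and Igfbpl1 were above background on 0 of 6 arrays and Igfals, the acid-labile subunit of the circulating complex, on 1.

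In the relay behind the receptor, 5 of 24 tested genes were called between the sorted groups, against 17.2% of all genes, so the share was near the background. Akt1, a central kinase of the pathway, was higher in myofibroblasts at 1.88 and 2.09 against 0.847 and 0.817 (log2 difference 1.25, limma, adjusted p = 0.0235), and by 0.45 with its other probe (adjusted p = 0.329). Rheb, the GTPase that switches on mTOR, was higher at 5.07 and 4.48 against 2.16 and 2.21 (1.12, limma, adjusted p = 0.0310). Eif4ebp1, an mTOR target that holds back translation, was higher at 2.71 and 3.82 against 0.802 and 1.51 (1.55, limma, adjusted p = 0.0483). Irs1, the adaptor that couples the receptor to PI3-kinase, was lower at 0.437 and 0.262 against 1.97 and 1.05 (-2.09, limma, adjusted p = 0.0291). Foxo1, a transcription factor that AKT keeps out of the nucleus, was lower at 0.747 and 0.7 against 2.34 and 2 (-1.58, limma, adjusted p = 0.0139, and -1.12 with its other probe, adjusted p = 0.0468). The group of 24 thus had 3 higher and 2 lower genes, a median of -0.07 and 19 genes that did not pass. All 5 calls were lost without either myofibroblast array, with adjusted p from 0.0634 to 0.200, and without either homogenate array, with adjusted p from 0.0601 to 0.116. Without the first fibroblast array Irs1 (adjusted p = 0.0616) and Eif4ebp1 (0.0739) were not called either. Akt1, Rheb and Eif4ebp1 were also not called with the authors' deposited scaling (adjusted p = 0.0521, 0.0827 and 0.0775).

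Of the 8 growth hormone genes, 2 were called between the sorted groups, 1 higher and 1 lower, against 17.2% of all genes. Ghr, the growth hormone receptor, was lower in myofibroblasts at 2.49 and 2 against 6.3 and 4.41 (log2 difference -1.24, limma, adjusted p = 0.0429). Its other probes gave -1.65 (adjusted p = 0.0150) and -0.85 (adjusted p = 0.101). Jak2, the kinase attached to that receptor, was higher at 1.39 and 1.49 against 0.533 and 0.595 (1.35, limma, adjusted p = 0.0201), with 1.52 for its other probe (adjusted p = 0.0697). Growth hormone is the main inducer of IGF1 in liver. Its part in the Igf1 difference was not tested. Without either myofibroblast array, Jak2 (adjusted p = 0.0776 and 0.101) and Ghr (0.104 and 0.181) were not called, nor without either homogenate array (0.0779 and 0.118), and Ghr was not called without the first fibroblast array (0.0664).

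The list of the Igf2 locus, other imprinted genes and proteins that bind Igf2 mRNA held 4 called genes of 6 tested between the sorted groups. Of all genes 17.2% were called there. H19, the maternally expressed noncoding RNA next to Igf2 on chromosome 7, read 2.09 and 2.21 in myofibroblasts and 0.0971 and 0.131 in homogenate and was not well above background on either fibroblast array (0.0121 and 0.0148). It was at least 50.2-fold higher in myofibroblasts than in fibroblasts, a bound set by the dimmest signal that counts as above background (limma, adjusted p = 0.000934), and exceeded homogenate by 4.25 ± 0.28 on the log2 scale (limma, adjusted p = 0.000510). With its brighter probe Igf2 itself was lowest in myofibroblasts, at 0.102 and 0.0513, without passing the test. With its second probe the sorted groups overlapped, the first fibroblast array (0.0854) lying below the first myofibroblast array (0.0987). The 2 fibroblast arrays, with H19 at 0.0121 and 0.0148, read 0.121 and 1.27 for Igf2. Cdkn1c, an imprinted cell-cycle inhibitor of the neighbouring domain, was lower in myofibroblasts at 0.298 and 0.443 against 5.66 and 4.1, with 2.19 and 1.98 in homogenate (log2 difference between the sorted groups -3.73 ± 0.32, limma, adjusted p = 0.00324). Igf2bp3, which encodes a protein that binds Igf2 mRNA, was lower at 0.741 and 0.569 against 7.49 and 4.55 (-3.17 ± 0.34, limma, adjusted p = 0.00514) and was not called with the mean of its probes (adjusted p = 0.0858). Dlk1, an imprinted gene of another locus, was lower at 0.0755 and 0.0504 against 0.338 and 0.257 (-2.26, limma, adjusted p = 0.0264). It was not called with the mean of its probes (-1.21, limma, adjusted p = 0.0662) or with array weights per group (limma, adjusted p = 0.132). Its call was also lost without either myofibroblast array (-2.55 and -1.97) or without the first fibroblast array (-2.06).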

How the data were processed

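Scanner files with intensity values per spot were deposited, written by Agilent Feature Extraction 12.0.3.1, per the submitters' processing notes. The processed signal had background subtracted and was not scaled between arrays, per the file headers. A second deposited table holds the authors' normalized intensity values, where each column equals its array's processed signal multiplied by a constant (5.17 to 6.93), to within 1% for 100% of spots. The sources used here do not give how the constants were set.

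The processed signal was divided by the array's 75th percentile (224 to 282) and taken to log2. Spots marked as outliers (80 to 119 per array) were dropped, and repeated spots of a probe were averaged. Probes were named by matching their transcript, without version, to RefSeq (GRCm38.p6), which gave 32994 probes 1 gene each; the array's annotation uses another build, so array coordinates were not used. The probe with the highest mean stood for its gene. Genes entered a comparison where 1 or both groups had that probe well above background on each of their 2 arrays. The 17403 genes tested in at least 1 comparison entered 1 fit of 3 groups over all 6 arrays (two-sided, with lmFit and eBayes of limma 3.58.1 under R 4.3.3), with 3 residual degrees of freedom and 5.57 in all. Benjamini-Hochberg adjustment ran over all genes of a comparison, and called means adjusted p under 0.05. SE and 95% intervals are limma's. Slide and scan were the same for all arrays and could not be blocks.

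Named were the 10 genes, the listed pathway genes called between the sorted groups (at most 4 each way per list), the 3 genes nearest in pattern to Igf1 and to the 2 members other than Igf1 with the smallest p between the sorted groups, and listed markers. Igfbp1, Igfbpl1 and Igfals were named after their values were seen. Of the listed leukocyte markers, 1 is not reported here by itself. The members and lists were chosen with earlier results of these data known. Settings tried were 4 other scalings or sources of the values, 2 filters, 2 probe rules, fewer arrays in the fit, a variance trend, array weights, a block for the replicate number, and removal of 1 array at a time. Normexp correction used an offset of 50 on each spot's median signal rather than its mean. The fit was tested on simulated data.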

Additional observations from a re-analysis of the deposited data

How the results depend on the processing

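Besides the settings reported, 12 others and the removal of each of the 6 arrays were tried on the 30 differences of the 10 IGF genes. Of the 360 values under other settings 340 kept direction and side of the threshold, 5 lost a call, 7 gained one and 8 changed sign. Of the 180 values with 1 array left out the counts were 130, 28, 14 and 8. All changes of sign were in differences that were not called. For Igf1r, myofibroblasts minus fibroblasts was -0.29 with the authors' deposited table, -0.15 with the mean of its probes and -0.35 with quantile normalization, and ran from -0.59 to 0.83 with 1 array left out. For Igf1r, myofibroblasts minus homogenate was -0.091 with the authors' table, -0.20 with quantile normalization and -0.30 to 1.12 with 1 array left out, and fibroblasts minus homogenate ran from -0.12 to 0.69. Igfbp3, myofibroblasts minus homogenate, was -0.36 with the authors' table and -0.46 with quantile normalization, and Igfbp6 was 0.39 with median scaling and -0.29 to 0.26 with 1 array left out. With 1 fibroblast array left out, fibroblasts minus homogenate was -0.89 or 2.51 for Igf2 and -0.57 or 3.06 for Igfbp4, and myofibroblasts minus fibroblasts was -1.24 or 2.38 for Igfbp4.

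Counts of calls moved more than the differences did. With 1 array left out, the IGF genes called were 1 to 7 between the sorted groups (5 with all arrays), 1 to 8 between fibroblasts and homogenate (6) and 1 to 7 between myofibroblasts and homogenate (3). The pathway genes called were 4 to 23 (16), 3 to 22 (12) and 4 to 28 (19), and all genes called 884 to 5604 (2758), 1420 to 6148 (3392) and 1724 to 7285 (4614). With array weights per group, 5 IGF genes and 7648 genes in all were called between myofibroblasts and homogenate, and 7 pathway genes and 1335 genes in all between the sorted groups. With only the 4 arrays compared in the fit, 7 IGF genes, 30 pathway genes and 7391 genes in all were called between myofibroblasts and homogenate, and 8 pathway genes and 1264 genes in all between the sorted groups. Requiring all 4 arrays above background left 2027 calls between fibroblasts and homogenate, with fewer genes tested. The cause of the other shifts was not tested.

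Array scaling moved the median of all genes from -0.06 to -0.47 between the sorted groups and from -0.01 to -0.51 between myofibroblasts and homogenate with the authors' table, and to 0.30 and 0.39 in the 2 comparisons with homogenate with median scaling. The Igf1 and Igfbp2 differences kept their direction under all 18 settings in all 3 comparisons. Arrays with the same replicate number did not deviate together (correlations of 0.07, -0.01 and 0.04 over 13998 genes). With only 1 difference between arrays in each group, this cannot show whether samples of the same number share a mouse or a batch. With the replicate number as a block, 5, 5 and 3 IGF genes were called in the 3 comparisons, 13, 12 and 16 pathway genes, and 2229, 3222 and 4045 genes in all. The number of arrays, 2 per group, limits the precision.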
